A study of Rattus norvegicus with 48 samples.

Results

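The chaperone and proteasome genes of the rat kidney were followed through a course of indole-3-carbinol, a plant compound whose breakdown products activate the aryl hydrocarbon receptor. The set was chosen by name, from probe sets with 1 gene symbol in the annotation of the array: heat shock protein genes (Hsp, without Hspb1), J protein genes (Dnaj), subunits of the CCT chaperonin (Cct) and genes of the proteasome (Psma to Psmg). This gave 69 genes of 7589 with 1 symbol, each measured by 1 probe set among 8797. Among the 69, Hspbap1, Hspbp1, Psmc3ip, Psme3ip1 and Psma2-ps2 fit the names but are not a subunit or chaperone of these families. They stay in all counts and medians of the 69. Another 5 probe sets fitted the names but carried several symbols and were not analysed here, the inducible Hspa1a and Hspa1b among them. Also without a single-symbol probe set in this table were Hspa8, Hsp90aa1, Hspd1, Dnajb1, Psmb10, Psme1 and Psme2.

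The animals were male rats aged 12 weeks, from 4 strains labelled F, L, FL and LF. Treated rats received indole-3-carbinol by gavage, 100 mg per kg body weight each day, and kidneys were taken after 7 or 10 days of it. Control rats, called day 0 as in the labels, received the vegetable oil carrier. There were 12 groups of 4 arrays, 48 arrays in all, from groups of 8 rats. The labels do not spell out the strain letters, and do not say whether an array held the RNA of 1 rat or of a pool, so p-values cover only the spread between these samples. Each strain had 1 carrier group, which serves both the day 7 and the day 10 comparison.

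Heat shock proteins of the HSP70, HSP90 and small families bind unfolded proteins, J proteins hand those proteins to HSP70 and start its ATP cycle, and the CCT chaperonin folds actin and tubulin in a closed chamber. The 20S proteasome is a barrel of alpha and beta subunits that cuts proteins, and its 19S cap recognises ubiquitin and unfolds the substrate. Many cytosolic chaperone genes are switched on by heat shock factor 1, those of the endoplasmic reticulum by the unfolded protein response, and the immunoproteasome subunits Psmb8 and Psmb9 by interferon.

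The arrays read as kidney: all 7 proximal tubule markers were measured, at a median log2 signal of 11.45, and the 7 markers of the loop and distal tubule at 9.71. Cyp1a1, the classic target of the aryl hydrocarbon receptor, was higher than at day 0 by 1.33 ± 0.22 at day 7 and by 1.74 ± 0.22 at day 10 (log2 difference ± standard error, averaged over the 4 strains; adjusted p = 8.83e-05 and 9.14e-07, limma). The tubular injury marker Havcr1 was higher by 1.77 ± 0.27 and 2.87 ± 0.27 (adjusted p = 3.40e-05 and 1.74e-09, limma). Array medians lay between 5.66 and 6.06, the standard deviation over probe sets of an array (its spread) between 2.29 and 2.54, and 5 arrays of lowest spread were left out in 1 alternative. The arrays of 1 replicate number share the start of their scan names and are called a run, and results that change with the run in the model are given with it. A run here means this shared number and name start, and a shared processing step was not established.

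The promoters were searched for elements through which some genes of these families are known to be switched on. RefSeq promoters (build GRCr8, 250 bases before to 50 after the start of a gene, 300 in all) were found for 59 of the 69 genes. The heat shock element was searched as GAANNTTCNNGAA or TTCNNGAANNTTC on both strands. It stood in the promoters of 4 of the 59 genes (6.78%), against 0.798% of all 33469 promoters, and the capitals mark it.
Hsph1, chr12:10427312-10427364, plus strand: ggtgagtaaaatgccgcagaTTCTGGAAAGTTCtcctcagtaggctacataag
Hspe1, chr9:64084242-64084299, plus strand: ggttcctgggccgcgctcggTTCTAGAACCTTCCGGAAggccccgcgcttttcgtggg
Dnaja1, chr5:60638405-60638433, plus strand: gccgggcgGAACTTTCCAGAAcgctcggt
Cct4, chr14:101193074-101193102, plus strand: gcgtcgctTTCTGGAAGGTTCgtggaggc
In Hsph1 the element lay 36 to 24 bases before the start, and in Hspe1 2 overlapping matches lay 65 to 48 bases before it. In Dnaja1 it lay at bases 10 to 22 after the start and in Cct4 at bases 26 to 38.

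The endoplasmic reticulum stress element, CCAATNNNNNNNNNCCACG on either strand, stood in the promoters of 3 genes (Hspa5, Dnajc3 and Hsp90b1), 5.08% against 0.0657% of all promoters, and is shown for the first 2.
Hspa5, chr3:38452953-38453011, plus strand: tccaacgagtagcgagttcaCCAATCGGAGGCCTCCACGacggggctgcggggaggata
Dnajc3, chr15:102432514-102432572, plus strand: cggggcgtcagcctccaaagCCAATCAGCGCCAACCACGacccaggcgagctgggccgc
An interferon element, GAAANNGAAA on either strand, stood in 6 promoters (10.2% against 3.92% of all), among them that of Psmb8 from 4 bases before to base 6 after the start, where the capitals below show it as its reverse complement.
Psmb8, chr20:4657018-4657043, minus strand: gctgtggcTTTCGCTTTCacttcctt
A STAT element, TTCNNNGAA, stood in 2 of the 59 promoters, those of Psmb8 and Psmd3 (3.39% against 8.87% of all). Neither these letters nor GAAANNGAAA were in the window of Psmb9. These matches describe the sequence only.

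At day 10 the median difference of the chaperone and proteasome genes from day 0 was close to 0, and 1 of the 69, Hspb2, passed the test. Equality with day 0 was not tested. Hspb2, a small heat shock protein of muscle that binds myotonic dystrophy protein kinase, fell by 0.32 ± 0.093 on the log2 scale, averaged over strains (adjusted p = 0.0490, limma, Benjamini-Hochberg over all probe sets). Of all probe sets, 2.41% passed the same threshold of 0.05, 1.15% lower and 1.26% higher. The median difference was 0.015 over the 69 genes and -0.003 over all probe sets, and 41 of the 69 lay above 0. Without replicate number 1 the median over the 69 was -0.008. At an unadjusted p under 0.05 there were 3 of the 69: Hspb2, Hspbap1 and Hsph1. That count stands without the share of all probe sets at the same p and is a description only.

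Over the 16 arrays of a day, Hspb2 had a lowest, median and highest log2 signal of 5.33, 6.06 and 6.71 at day 0, of 5.40, 5.83 and 6.13 at day 7, and of 5.37, 5.66 and 6.21 at day 10. The arrays of the 3 days overlapped. In F the difference was widest, with 5.44, 5.61, 5.84 and 5.37 at day 10, against 6.71, 5.87, 6.03 and 6.45 at day 0. All 4 treated F arrays lay below all 4 carrier arrays, although the test within F missed the threshold (-0.70 ± 0.19, adjusted p = 0.113, limma). In LF day 10 the values were 5.49, 5.71, 6.15 and 5.96, against 6.11, 6.10, 5.70 and 5.60 in LF day 0, and the groups overlapped throughout.

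The call on Hspb2 depended on single runs and arrays. The difference within the 4 runs was -0.82, -0.37, 0.03 and -0.14, and leaving out run 1 gave -0.16 (adjusted p = 0.810, limma). The call ended on leaving out any 1 of 36 of the 48 arrays. Its locus overlaps that of Cryab, another small heat shock protein gene, on rat chromosome 8, and Cryab did not pass the test (-0.09, adjusted p = 0.700, limma). Among markers of muscle cells, pericytes and fibroblasts (3 of 6 were measured), 2 were higher at day 10, and their mean signal was 7.18 to 7.81 per array, against 6.97 to 7.60 at day 0. Their part in the Hspb2 result was not tested, and in whole kidney fewer cells of a type and less RNA per cell cannot be told apart.

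**Figure D1:**
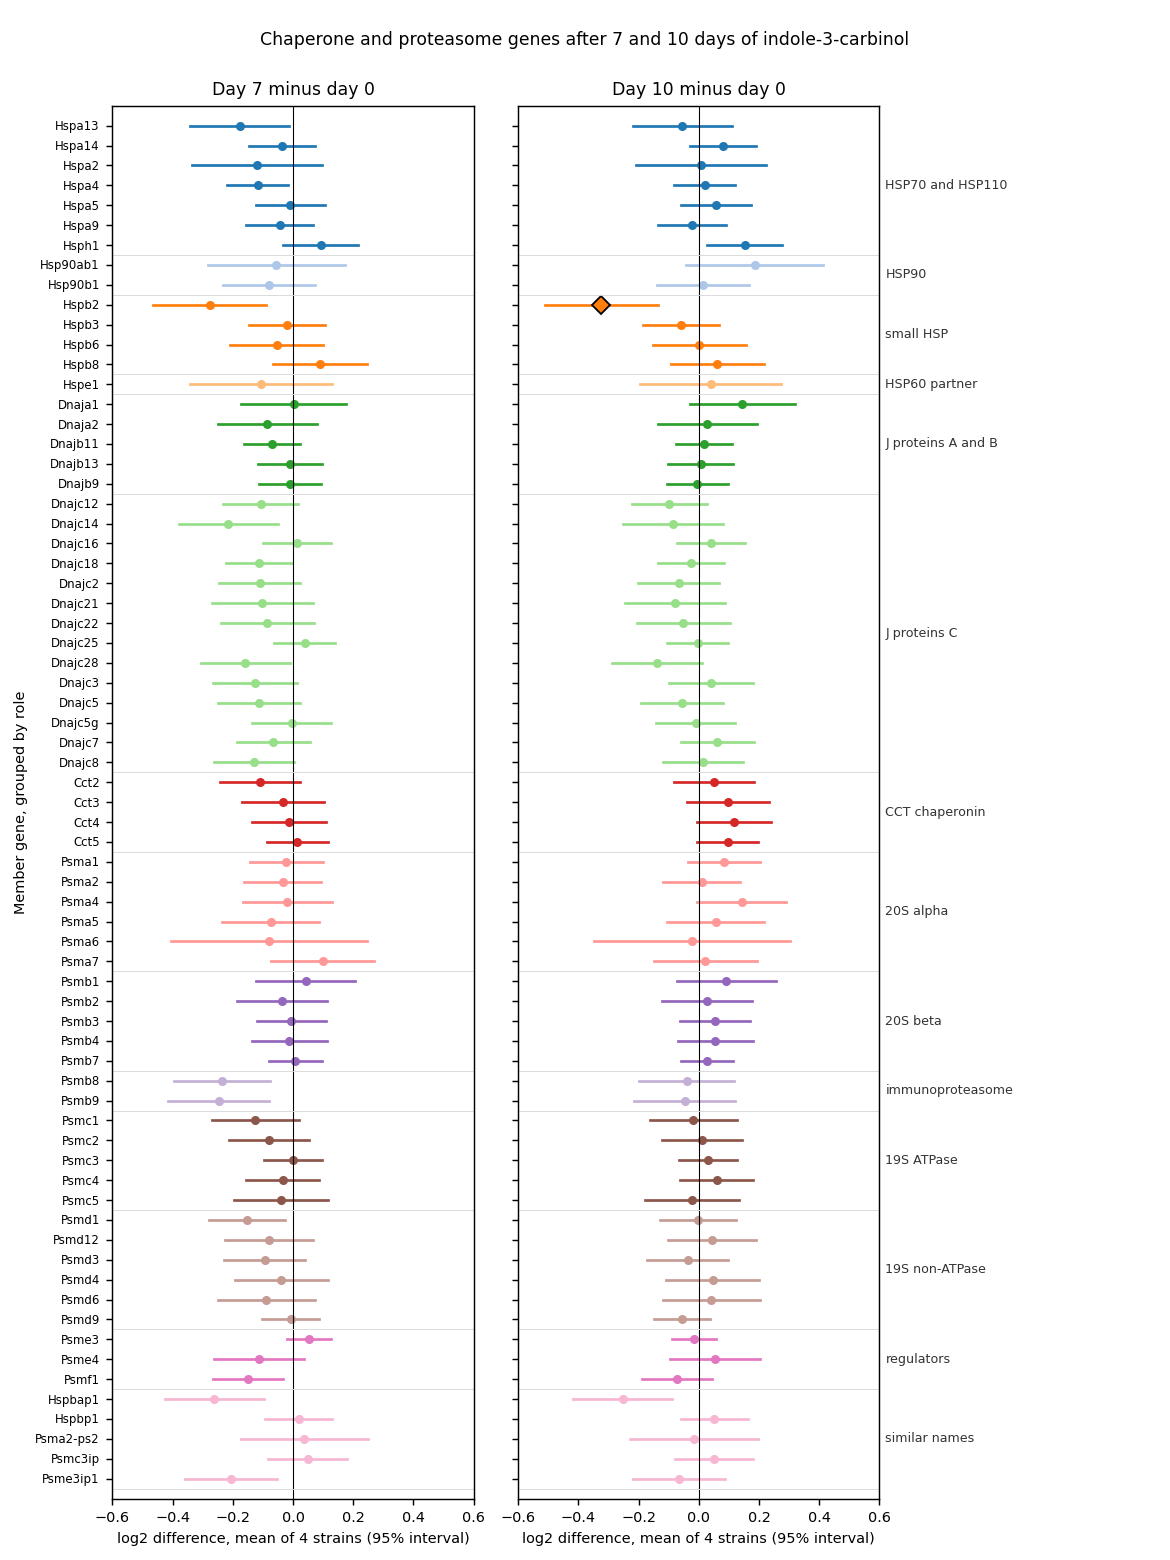
Log2 difference of each of the 69 genes from day 0 at day 7 and at day 10, averaged over strains, with 95% intervals from the fit and a diamond where the adjusted p is under 0.05. All genes lie between -0.32 and 0.19, and the only diamond is Hspb2 at day 10.

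At day 7 none of the 69 genes passed the test, while 4.94% of all probe sets did, 3.75% lower and 1.19% higher. Here 12 of the 69 had an unadjusted p under 0.05. The share of all probe sets at that p is not given here, so this count is a description only. The median difference was -0.06 (all probe sets -0.03). That median depended on the scaling: it was -0.004 after a second quantile normalization, 0.002 with array medians subtracted and 0.018 with the spread as a covariate. The smallest p-values belonged to Hspbap1, which associates with the small heat shock protein Hspb1 (-0.26 ± 0.082, adjusted p = 0.0517, limma), to the immunoproteasome subunit Psmb8 (-0.24, adjusted p = 0.0694), to Hspb2 (-0.28, adjusted p = 0.0719) and to the immunoproteasome subunit Psmb9 (-0.25, adjusted p = 0.0724). Psme3ip1, which binds the proteasome activator Psme3, followed at -0.21 (adjusted p = 0.106, limma).

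With the run as a block, 5 genes were lower at day 7: Hspb2 (adjusted p = 0.0443), Hspbap1 (0.0143), Psmd1 (0.0198), Psme3ip1 (0.0119) and Psmf1 (0.0204), all by limma. Psmd1 is the large scaffold subunit of the 19S cap and Psmf1 a regulator that binds the 20S barrel. Their differences lay between -0.15 and -0.28. At day 10 the block gave 2 genes, Hspb2 (adjusted p = 0.0379) and Hspbap1 (-0.25, adjusted p = 0.0353, limma). For the block the share of all probe sets past the test is not given here, so these counts are descriptions only.

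Hspbap1 had lowest, median and highest log2 signals of 7.12, 7.37 and 7.66 at day 0, of 6.61, 7.09 and 7.70 at day 7, and of 6.19, 7.17 and 7.48 at day 10. In F its 4 arrays were 7.07, 6.99, 6.94 and 6.85 at day 7 and 7.08, 7.05, 6.83 and 6.19 at day 10, against 7.21, 7.45, 7.41 and 7.26 at day 0. No treated F array reached the carrier arrays, while in L the groups overlapped.

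Day 10 was set against day 7 in the same way, where 60 of the 69 genes lay above 0 and 0 passed the test (0.114% of all probe sets did; unadjusted p under 0.05 in 13 of the 69). The median difference was 0.067 over the genes and 0.033 over all probe sets. After a second quantile normalization 37 of the 69 lay above 0, with a median of 0.013 (all probe sets -0.005). The count at an unadjusted p stands without its share of all probe sets and is a description only. The cause was not tested.

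By role, the cytosolic and endoplasmic reticulum chaperones gave no call in the strain average apart from Hspb2. Of the 7 HSP70 and HSP110 genes, Hspa5, the endoplasmic reticulum HSP70 also known as BiP, differed by -0.01 at day 7 and 0.06 at day 10. Hsph1, the HSP110 that recharges HSP70 with ATP, differed by 0.09 at day 7 and by 0.15 ± 0.062 at day 10 (adjusted p = 0.304, limma). Over the 16 arrays of a day its lowest, median and highest signals were 8.28, 8.52 and 8.76 at day 0, 8.07, 8.51 and 9.13 at day 7, and 8.40, 8.67 and 9.01 at day 10. The highest arrays of day 7 and day 10 thus lay above every carrier array, and the rest overlapped.

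The HSP90 genes did not pass the test: Hsp90b1 of the endoplasmic reticulum differed by -0.08 at day 7 and 0.01 at day 10, and cytosolic Hsp90ab1 by -0.06 and 0.19. Hspe1, the lid of the mitochondrial HSP60 chamber, differed by -0.11 and 0.04. The 5 J proteins of classes A and B ranged from -0.09 to 0.003 at day 7 and from -0.005 to 0.14 at day 10, where Dnaja1, a cytosolic HSP70 partner, was the farthest from 0 (adjusted p = 0.696, limma). The endoplasmic reticulum J protein Dnajb9 differed by -0.01 at day 7 and -0.005 at day 10.

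The 14 class C J proteins had a median of -0.11 at day 7 and -0.04 at day 10, with Dnajc3, an endoplasmic reticulum partner of BiP, at -0.13 and 0.04. The 4 CCT subunits lay between 0.05 and 0.12 at day 10, Cct2 at 0.05 and Cct4 at 0.12 (adjusted p = 0.975 and 0.566, limma). Over the 16 arrays Cct4 had 8.27, 8.50 and 8.90 at day 0, 8.14, 8.54 and 8.78 at day 7, and 8.20, 8.68 and 8.98 at day 10 as lowest, median and highest. Neither the J proteins nor the CCT subunits had a gene past the threshold in these fits.

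The proteasome core had no gene past the threshold at either day. The 6 alpha subunits ranged from -0.08 to 0.10 at day 7 and from -0.02 to 0.14 at day 10, with Psma7 at 0.10 and 0.02 and Psma4 at -0.02 and 0.14. The 5 constitutive beta subunits ranged from -0.04 to 0.04 and from 0.03 to 0.09, with Psmb7 at 0.01 and 0.03 and Psmb1 at 0.04 and 0.09. The 5 ATPases of the 19S cap, which unfold the substrate, ranged from -0.13 (Psmc1) to -0.001 at day 7 and from -0.02 to 0.06 (Psmc4) at day 10. The 6 Psmd genes, named for the 19S cap, had a median of -0.08 at day 7 and 0.02 at day 10, and Psmd4, a ubiquitin receptor, differed by -0.04 and 0.05. Of the other regulators, Psme3 differed by 0.05 and -0.02 and Psmf1 by -0.15 and -0.07.

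Precision differed between genes. The standard deviation between arrays of a group had a median of 0.19 over the 69 genes, was smallest for Psme3 (0.089) and largest for Psma6 (0.47), an alpha subunit.

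Within single strains 0 to 2 of the 69 genes were called per comparison, where 0.0114% to 2.26% of all probe sets were. With so few calls, their lack of recurrence across strains is not read as a strain difference. In F at day 7, 1 of the 69 genes passed the test, Hsph1, which was higher (0.671% of all probe sets passed, 0.432% higher). Its 4 F arrays read 9.13, 8.93, 8.96 and 9.04 at day 7, against 8.28, 8.47, 8.54 and 8.58 at day 0. Every treated array lay above every carrier array, and the difference was 0.55 ± 0.12, or 1.46-fold (adjusted p = 0.0156, limma, n = 4 each). It was higher in all 4 runs.

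In the other strains the day 7 difference of Hsph1 was -0.04 (L), -0.10 (FL) and -0.04 (LF), none past the threshold. The difference between the FL and F responses was -0.65 ± 0.18 (adjusted p = 0.242, limma), and the test of any difference in response among the 4 strains gave an adjusted p of 0.237, so a strain difference was not established. F day 10 arrays read 8.72, 8.40, 8.93 and 9.01, between the other F groups and overlapping both. The call ended in 8 of 61 alternatives, all by limma. These were leaving out any 1 of the 4 replicate numbers (adjusted p = 0.174, 0.110, 0.121 and 0.104 without numbers 1 to 4), F day 0 replicate 1 (0.119), F day 7 replicate 1 (0.0792) or F day 7 replicate 4 (0.0503), and fitting the F arrays alone (0.129).

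Dnaja1, which shares the heat shock element shown above, read 9.84, 9.31, 9.50 and 9.37 in F day 7, against 8.92, 9.01, 8.97 and 9.11 in F day 0. These groups did not overlap either, and the difference was 0.50 ± 0.17 (adjusted p = 0.288, limma). The other genes with the element differed by 0.24 (Hspe1) and 0.10 (Cct4) in F at day 7. In LF at day 7 the 4 genes differed by -0.04 (Hsph1), -0.27 (Dnaja1), -0.60 (Hspe1) and -0.24 (Cct4), and none passed the test. Of the genes with the endoplasmic reticulum element, Hspa5 read 11.11, 11.09, 11.04 and 10.90 in F day 7, against 10.51, 10.86, 10.86 and 10.81 in F day 0 (0.28 ± 0.11, adjusted p = 0.544, limma). The 4 treated arrays of Hspa5 were all the higher ones, and F day 0 replicate 1 (10.51) stood apart from its group. Dnajc3 differed by 0.19 and Hsp90b1 by 0.075 in F at day 7, and neither passed the test.

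**Figure D2:**
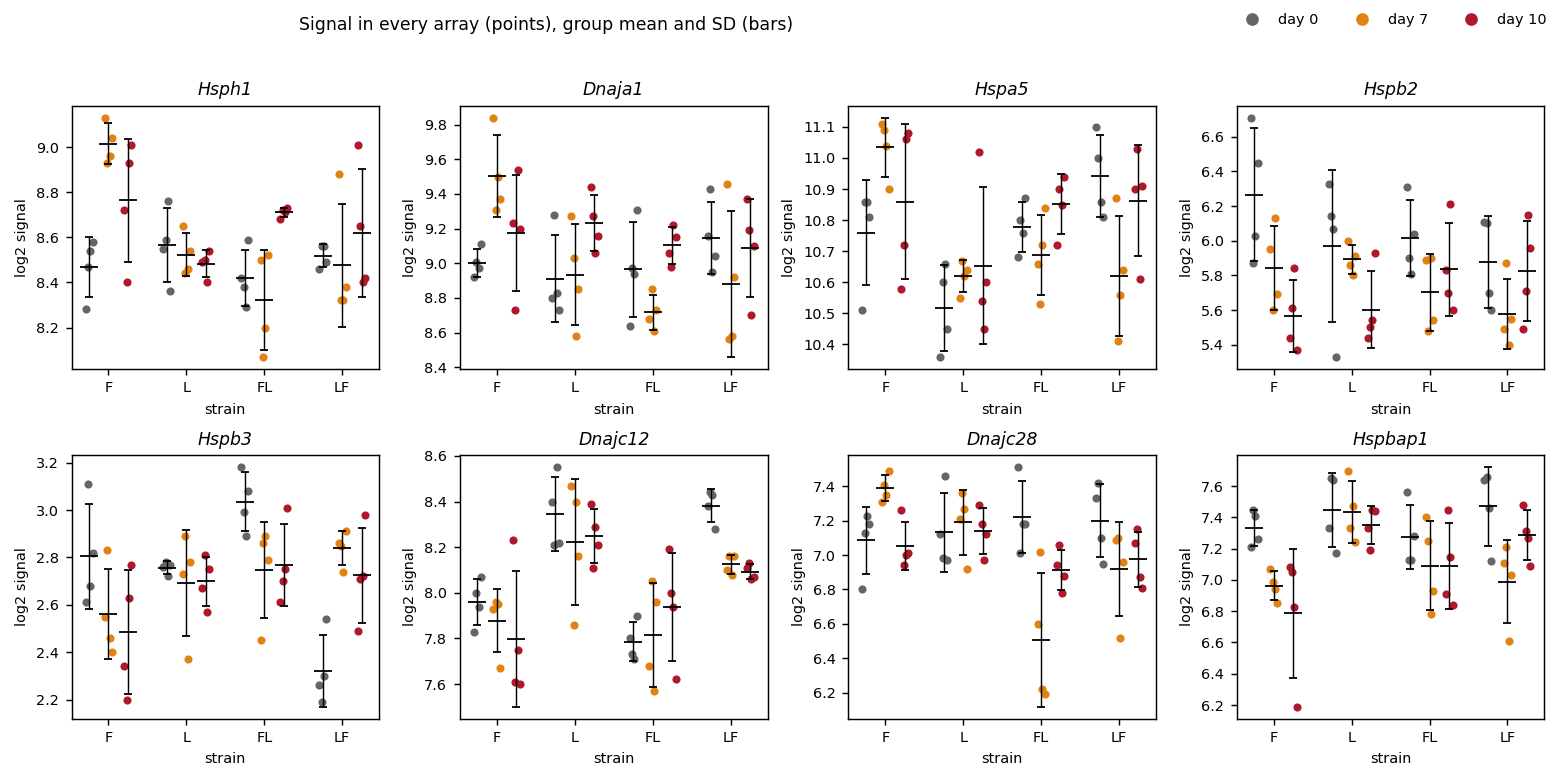
Log2 signal of Hsph1, Dnaja1, Hspa5, Hspb2, Hspb3, Dnajc12, Dnajc28 and Hspbap1 in each of the 48 arrays by strain and day, with the mean and standard deviation of each group of 4. Hsph1 in F day 7 (8.93 to 9.13) stands above F day 0 (8.28 to 8.58), and Dnajc28 in FL day 7 reaches down to 6.19.

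In FL at day 7 the 1 gene past the test was Dnajc28, a J protein of class C, which was lower (0.159% of all probe sets passed, 0.136% lower). Its arrays read 6.60, 7.02, 6.22 and 6.19 in FL day 7, against 7.51, 7.01, 7.18 and 7.18 in FL day 0. Of the treated arrays 3 lay below every carrier array, and replicate 2 lay among them, so that the groups overlapped. The difference was -0.71 ± 0.15 (adjusted p = 0.0158, limma), and it was -0.91, 0.01, -0.96 and -0.99 in runs 1 to 4. In F day 7 the same gene read 7.31, 7.41, 7.35 and 7.49, against 6.80, 7.13, 7.23 and 7.18 in F day 0. There the treated arrays were the higher ones.

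The response of Dnajc28 at day 7 was lower in FL than in F by 1.02 ± 0.21 on the log2 scale (-1.02, adjusted p = 0.0358, limma), and it was the 1 gene of the 69 past that test (0.0568% of all probe sets lower). At day 10 the FL and F responses differed by -0.27 (adjusted p = 0.957), and 0 of the 69 passed (0% of all probe sets; unadjusted p under 0.05 in 0 of the 69). The FL day 7 call ended in 8 of 61 alternatives. FL day 7 replicates 3 and 4 are among the 5 arrays of lowest spread, and without those 5 arrays the difference was -0.41 (adjusted p = 0.710, limma). The others were leaving out replicate number 1 (0.414), 3 (0.252) or 4 (0.351), FL day 0 replicate 1 (0.156), FL day 7 replicate 3 (0.139) or FL day 7 replicate 4 (0.172), and fitting the FL arrays alone (0.446). The response difference between FL and F ended in 14 of 60: without the 5 arrays (-0.72, adjusted p = 0.409), without replicate numbers 1, 3 or 4 (0.337 to 0.548), and without F day 0 replicate 1, 2 or 4, F day 7 replicate 2, 3 or 4, FL day 0 replicate 1 or 3, or FL day 7 replicate 3 or 4, each alone (0.0504 to 0.197, limma). The gene lies within the locus of Son on chromosome 11, and the signals of the 2 loci were not separated here.

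The LF kidneys at day 7 were the group in which the whole set moved furthest. The 69 genes had a median difference of -0.21 from LF day 0, against -0.06 for all probe sets, and 10 of the 69 lay above 0 (24 with an unadjusted p under 0.05). Past the test were 1 higher gene, Hspb3, and 1 lower gene, Psmb9 (2.26% of all probe sets passed, 0.386% higher and 1.88% lower). With the run as a block 7 genes passed: Hspb3 (higher, adjusted p = 0.00574), and Dnaja2 (0.0149), Hspbap1 (0.0323), Psmb9 (0.0269), Psmc1 (0.0288), Psmc2 (0.0460) and Psme3ip1 (0.0145), which were lower, with differences of -0.27 to -0.61 (limma). Psmc1 and Psmc2 are ATPases of the 19S cap, and Dnaja2 is a cytosolic J protein. The count with the block and the count at an unadjusted p stand without their shares of all probe sets, and are descriptions only.

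Signal strength and array spread are given beside the LF day 7 values, and their part in them was not tested. Among probe sets with a mean log2 signal of at least 7, the median difference was -0.24 over 50 of the 69 genes and -0.16 over all 2997 such probe sets. Set against the mean of LF day 0, the median of the 69 genes was -0.07, -0.11, -0.39 and -0.25 in LF day 7 replicates 1 to 4, whose spreads were 2.46, 2.44, 2.33 and 2.36. The 2 arrays of lower spread had the lower genes. The median was -0.06 (all probe sets 0.01) after a second quantile normalization and -0.05 (all 0.005) with the spread as a covariate. Without LF day 7 replicate 3 it was -0.17, with 7 genes at an unadjusted p under 0.05.

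Across the 69 genes the within-group correlation of signal with array spread over the 48 arrays had a median of 0.66, given here as a description. The correlation was 0.92 for Cct2. The spread was lower on average in replicate number 4 (2.38) than in replicate number 1 (2.48).

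**Figure D3:**
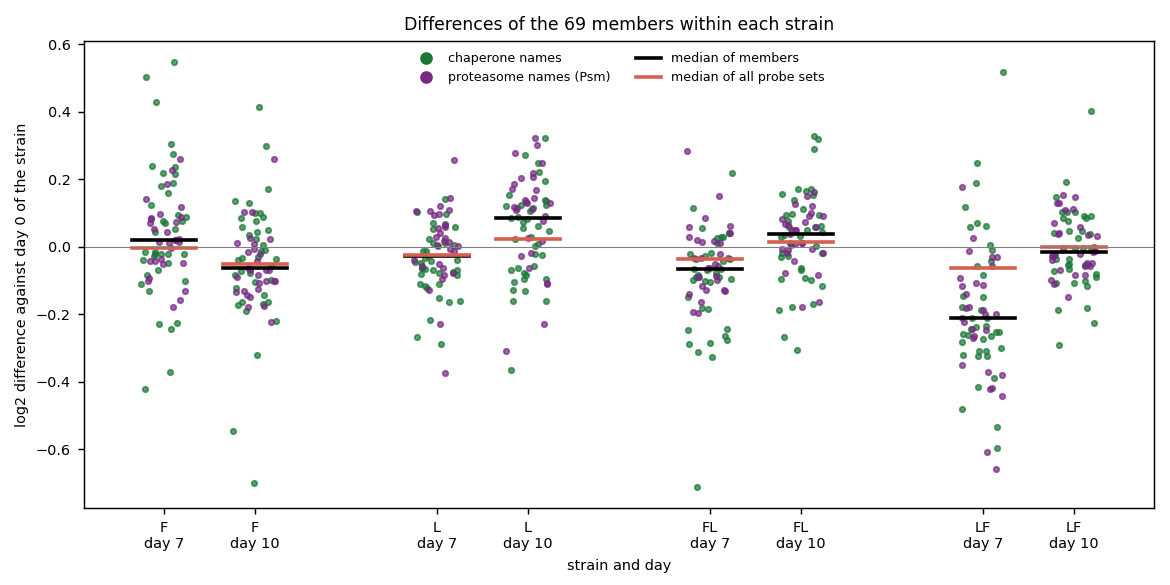
Log2 difference of each of the 69 genes from day 0 of the same strain at day 7 and day 10 (points), with the median of the 69 genes in black and of all probe sets in red. The lowest black line is that of LF day 7, at -0.21.

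Psmb9, the interferon-induced beta subunit also called LMP2, read 6.29, 5.93, 6.10 and 6.47 in LF day 7, against 6.89, 6.64, 6.94 and 6.75 in LF day 0. No array overlapped, and the difference was -0.61 ± 0.17 (adjusted p = 0.0386, limma, lower in all 4 runs). At day 10 the LF arrays read 6.77, 6.79, 7.07 and 7.04, above all those of day 7. Psmb8, its partner LMP7, read 6.42, 6.63, 6.27 and 6.75 in LF day 7, against 6.86, 7.06, 6.99 and 6.84 in LF day 0. All 4 treated arrays lay lower, and the difference of -0.42 ± 0.16 did not pass the test (adjusted p = 0.138, limma).

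The interferon list moved with these subunits. Of its 18 measured genes (of 29 listed), 10 were lower in LF at day 7, and its mean log2 signal per array was 4.83 to 4.93 in LF day 7, against 5.58 to 6.15 in LF day 0. In LF day 10 it was 5.71 to 6.56. Averaged over strains, 15 of the 18 were lower at day 7 and 1 at day 10. The list was named with earlier results of these data in view, and its fall is no independent support.

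Markers of immune cells were set beside Psmb9. The 4 measured macrophage and myeloid markers (of 7) had a mean of 4.94 to 5.18 per array in LF day 7, against 5.30 to 5.58 in LF day 0, with 2 of them lower past the test. The 5 measured T and natural killer cell markers (of 8) had 4.62 to 4.65, against 4.68 to 4.85, with 0 past the test (limma). Their part in the Psmb9 result was not tested. The call ended after a second quantile normalization (-0.44, adjusted p = 0.103), with array medians subtracted (-0.49, 0.0712), with the spread as covariate (-0.51, 0.0827) and without the 5 arrays of lowest spread (-0.58, 0.0966). It also ended without LF day 0 replicates 1, 2 or 3 (adjusted p = 0.117, 0.0798 and 0.0939) or LF day 7 replicates 2 or 3 (0.113 and 0.137), each left out alone, and without replicate numbers 1, 2 or 3 (0.125, 0.239 and 0.351), so in 12 of 61 alternatives in all.

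**Figure D4:**
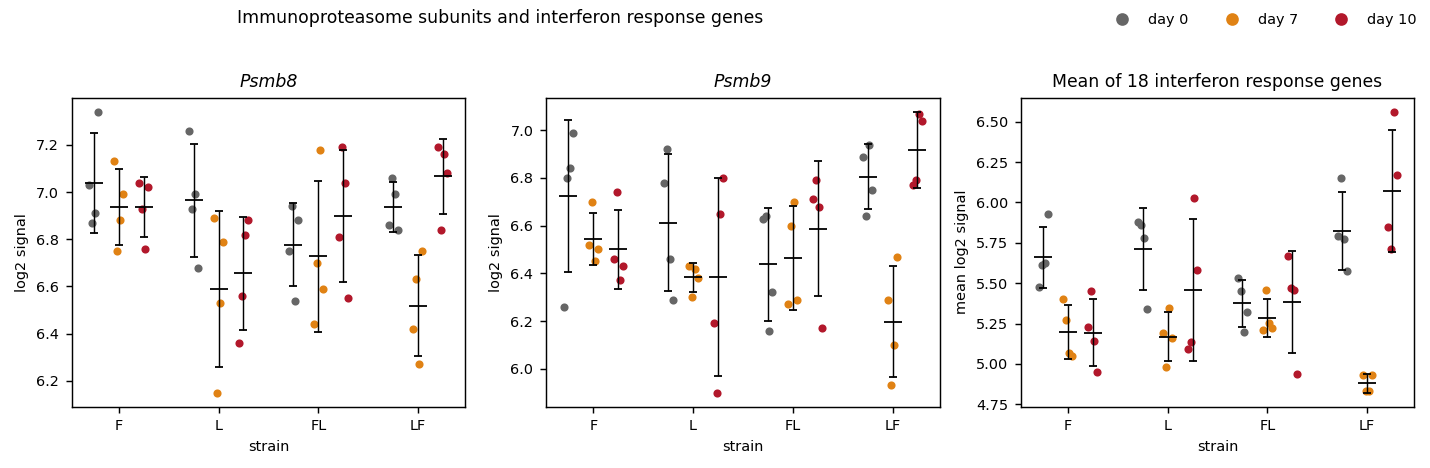
Log2 signal of Psmb8 and Psmb9 and the mean of the 18 measured interferon genes in each of the 48 arrays by strain and day, with the mean and standard deviation of each group. In LF the day 7 arrays are the lowest of the 3 days in all 3 panels, with the interferon mean at 4.83 to 4.93.

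Other single-strain comparisons gave 0 calls among the 69: F day 10 (0.239% of all probe sets, 0.0796% higher and 0.159% lower; 5 of the 69 at an unadjusted p under 0.05), L day 7 (0.0114%; 2), L day 10 (0.0114%; 3), FL day 10 (0.0909%, 0.0455% higher and 0.0455% lower; 4) and LF day 10 (0.887%, 0.591% higher and 0.296% lower; 2), all by limma. The LF and L responses differed for 0 of the 69 at day 7 (0.0568% of all probe sets; 6 unadjusted) and for 0 at day 10 (0.0227%; 1 unadjusted). In these brackets and the next, the percentages are shares at an adjusted p. The counts at an unadjusted p have no share of all probe sets beside them and are descriptions only. The test over all strains and both days gave 0 of the 69 (0.193% of all probe sets, and 9 of the 69 at an unadjusted p under 0.05). Its smallest adjusted p-values were those of Hspb3 (0.120), Dnajc28 (0.162), Hsph1 (0.237) and Psma4 (0.557), and with the run as a block Hspb3 passed (0.0413, limma). Psma4 read 8.33, 8.15, 7.81 and 7.99 in LF day 7, against 8.66, 8.56, 8.34 and 8.21 in LF day 0, and 8.67, 8.33, 8.40 and 8.34 in F day 7, against 7.98, 8.22, 8.29 and 8.34 in F day 0. The groups overlapped in both strains, with lower treated means in LF and higher ones in F.

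Between the strains at day 0, 2 of the 69 genes differed, Dnajc12 and Hspb3 (adjusted p = 0.00131 for each in the test of any difference, limma; 3.43% of all probe sets passed). Dnajc12 is a J protein that in human tissue assists the aromatic amino acid hydroxylases. It read 7.80, 7.73, 7.71 and 7.90 in FL and 7.83, 8.00, 7.94 and 8.07 in F, against 8.38, 8.44, 8.43 and 8.28 in LF and 8.40, 8.21, 8.55 and 8.22 in L. All F and FL arrays lay at 7.71 to 8.07 and all L and LF arrays at 8.21 to 8.55, with no overlap.

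The difference of FL from LF was -0.60 ± 0.12 (adjusted p = 0.00215, limma, lower in 4 of 4 runs). That of F from L was -0.39 ± 0.12 and missed the threshold (adjusted p = 0.142), with 0 of the 69 past the test between F and L (1.55% of all probe sets, 0.693% higher and 0.853% lower; 4 unadjusted). Between the strain pairs FL and F and between LF and L no gene of the 69 passed (0.0682% of all probe sets between FL and F, 0.0341% higher and 0.0341% lower, and 0.193% between LF and L, 0.136% higher and 0.0568% lower; 2 and 3 unadjusted, limma). These unadjusted counts, too, stand without their share of all probe sets and are descriptions only. At day 7 Dnajc12 lay at 7.57 to 8.05 in F and FL and at 7.86 to 8.47 in L and LF, and at day 10 at 7.60 to 8.23 and 8.06 to 8.39. The strain groups then overlapped. The call on FL against LF ended without replicate number 2 (adjusted p = 0.0526) and without replicate number 3 (0.0784).

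Hspb3, a small heat shock protein found mainly in muscle, was a dim probe set with a mean of 2.70, at percentile 13.3 of all probe sets. It read 3.18, 2.99, 2.89 and 3.08 in FL day 0, against 2.26, 2.19, 2.30 and 2.54 in LF day 0. The FL arrays all lay above the LF arrays, and the difference was 0.71 ± 0.13 (adjusted p = 2.07e-04, limma). In LF day 7 it read 2.86, 2.85, 2.74 and 2.91, all above LF day 0 (0.52 ± 0.13, adjusted p = 0.0172, limma). Both results rest on the same low LF day 0 arrays, so they are not independent. The day 7 call ended in 5 of 60 alternatives: without LF day 0 replicate 1 (adjusted p = 0.0629) or replicate 2 (0.0969), and without replicate number 1 (0.0988), 2 (0.214) or 3 (0.125), by limma.

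Over the 69 genes FL lay below LF at day 0 by a median of -0.18, against -0.05 for all probe sets, and 13 of the 69 lay above 0 (20 with an unadjusted p under 0.05). After a second quantile normalization the medians were -0.045 and 0.008, and with array medians subtracted -0.088 and 0.040. Past the test were 1 higher and 1 lower gene (3.07% of all probe sets, 0.796% higher and 2.27% lower). With the run as a block 10 passed, 1 higher and 9 lower: Cct5, Dnaja2, Dnajc12, Dnajc16, Dnajc7, Psma1, Psmb7, Psmc1 and Psmc2, with adjusted p from 0.00128 to 0.0494 (limma). Neither this count nor the count at an unadjusted p has its share of all probe sets beside it, so both are descriptions only. Dnajc16, with an adjusted p of 0.0914 in the test of any strain difference, read 7.25, 7.00, 6.85 and 7.11 in FL, against 7.34, 7.48, 7.34 and 7.29 in LF, and its groups did not overlap. Psmb7, a catalytic beta subunit, read 9.61, 9.40, 9.63 and 9.58 in FL, against 9.98, 9.71, 9.83 and 9.80 in LF. Here too every FL array was lower (-0.28, adjusted p = 0.0728, limma).

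Apart from the interferon list, single genes of the wider pathways passed the test. Of all probe sets, 4.94% passed at day 7 and 2.41% at day 10. With lists this short, the counts are not read as a result about the pathways. Counts at an unadjusted p, here and in the next paragraph, stand without their share of all probe sets and are descriptions only. Of 12 measured heat shock factors and co-chaperones (33 listed), Hsf2, a heat shock transcription factor, was lower at day 7 (-0.40 ± 0.11, adjusted p = 0.0357), and Fkbp5, an HSP90 partner induced by glucocorticoids, was higher at day 10 (0.72 ± 0.19, adjusted p = 0.0308, limma). At an unadjusted p under 0.05 there were 3 of the 12 at day 7 and 1 at day 10. Of 20 genes of the unfolded protein response (32 listed) and 10 of mitochondrial protein quality control (14 listed), 0 passed at day 7 or day 10 (limma; at an unadjusted p under 0.05 there were 4 and 1 at day 7 and 0 and 0 at day 10). Their medians were -0.08 and -0.02 at day 7 and 0.02 and 0.002 at day 10. Atf4, the transcription factor of the stress response, differed by 0.005 at day 7 and -0.03 at day 10.

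Of 9 genes of proteasome control and ubiquitin (27 listed), Nfe2l2, the oxidative stress factor Nrf2, was higher at day 10 (0.23 ± 0.061, adjusted p = 0.0302, limma). There 3 of the 9 had an unadjusted p under 0.05 at day 7 and 1 at day 10. Of 12 antigen presentation genes (15 listed), RT1-DMa, a class II loading factor, was higher at day 7 (0.20, adjusted p = 0.0444, limma). An unadjusted p under 0.05 was met by 7 of the 12 at day 7 and by 2 at day 10. Tap1, the peptide transporter encoded beside Psmb8 and Psmb9 on chromosome 20, differed by -0.24 at day 7 (adjusted p = 0.0721, limma). At day 10 it differed from day 0 by -0.004.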

How the data were processed

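Kidney RNA of 48 samples was measured on whole-transcript arrays. The deposited values are log2 signals, which the authors made with RMA per the submitters' processing notes, where limma is named too, without versions. RMA corrects background, quantile-normalizes and summarises probes. Detection calls and the probe set filter are not given in the sources used here. The table had 8797 probe sets, 0 missing values and 0 unmapped columns; 7603 probe sets had 1 symbol, 409 several and 785 none.

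In R 4.3.3 with limma 3.58.1, 1 model with 12 group means took in the 48 arrays (36 residual, 3.69 prior degrees of freedom). It gave 19 contrasts and 2 moderated F tests (3 and 6 degrees of freedom), with Benjamini-Hochberg adjustment over the whole table and a threshold of 0.05. Counts at an unadjusted p under 0.05 are given without the share of all probe sets at that p. They are descriptions only, and the shares printed near them are those at an adjusted p. The scripts were tested on simulated data. Gene positions came from a RefSeq table of GRCr8, which held 69 of the 69 genes.

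Replicate numbers pair arrays as runs because, per the labels, scan names share their start by number. Deviations of arrays with 1 number from their group means correlated at 0.0942 on average (-0.268 to 0.579 over 264 pairs), against -0.0314 for other numbers, and 26 of 48 arrays correlated best with their own number. The 69 genes and the lists were chosen with earlier results of these data known. Genes were named by a rule: those past a test, the brightest and the smallest p at day 10 of each role, a fixed list of known stress genes, and the smallest p of each test. The T and natural killer, macrophage, muscle and kidney marker lists and the pathway lists were read by counts and levels. Alternatives were the run block, a second quantile normalization, array medians subtracted, spread as covariate, array weights, dim probe sets left out (25%), trended robust variances, own-strain fits, and leaving out the 5 arrays of lowest spread, each replicate number and each array. Averaging several probe sets per gene changes nothing here, since each gene has 1.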

Additional observations from a re-analysis of the deposited data

Results flagged for a closer look

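Single arrays stood apart from the other 3 of their group for 7 of the 168 groups tested, over the genes whose values in every array are given, where chance marks about 1 group in 20. Cct4 was low in FL day 10 replicate 4, at 8.20 with the nearest array at 8.69. Dnajc12 was low in F day 7 replicate 4, at 7.67 (nearest 7.93). Hspa5 was low in F day 0 replicate 1, at 10.51 (nearest 10.81), which is in the group that F day 7 was set against. Hsph1 was high in LF day 7 replicate 1, at 8.88 (nearest 8.38). Psmb7 was low in replicate 1 of F day 0 (9.53, nearest 9.80), of LF day 10 (9.70, nearest 9.78) and of F day 7 (9.59, nearest 9.71).

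The day 7 response of Dnajc28 differed between FL and F by -1.02 (adjusted p = 0.0358, limma), with a lower value in FL and higher values in F, and lower in 4 of 4 runs.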

How the results depend on the processing

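The gene differences past a test, and those of Hspb2, Hspbap1, Psmb8 and Psmb9 at day 7 and Hspbap1 and Hsph1 at day 10 averaged over strains, kept their sign under each alternative run. Other single genes were not followed through the alternatives. Medians close to 0 did change sign, as given with them in the report. In LF day 7 the median of all probe sets was 0.058 with array medians subtracted. Numbers of the 69 genes past the test changed as follows. At day 7, averaged over strains (0 genes), there were 5 with the run as replicate block, 2 after quantile normalization, 1 with medians subtracted, 1 with spread as covariate, 10 with array weights, 1 without dim probe sets and 1 with trended robust variances, and 0 to 6 leaving out arrays or numbers. At day 10 (1 gene) there were 2, 3, 2 and 4 under the first 4 of these, 0 without the 5 arrays of lowest spread, and 0 to 1 leaving out. F day 7 (1) had 0 in its own arrays, 0 without any 1 of the replicate numbers and 0 to 1 leaving out single arrays; F day 10 (0) had 1 after quantile normalization and 1 with medians subtracted. FL day 7 (1) had 0 without the 5 arrays, 0 in its own arrays and 0 to 1 leaving out. LF day 7 (2) had 7 with the block, 1 with spread as covariate, 1 without dim probe sets, 1 without the 5 arrays and 0 to 5 leaving out. LF day 10 (0) had 1 with weights. F against L (0) had 1, 1 and 1 under quantile normalization, medians and spread, 2 with weights and 0 to 1 leaving out. FL against LF (2) had 10 with the block, 5 with medians, 7 with weights, 1 without dim probe sets, 5 without the 5 arrays and 1 to 8 leaving out. The FL and F day 7 response (1) had 0 without the 5 arrays and 0 to 1 leaving out. Any strain difference at day 0 (2) had 6 with weights, 1 without dim probe sets and 1 to 3 leaving out; any response difference (0) had 1 with the block, 1 with spread, 1 with weights and 0 to 1 leaving out. The causes were not tested. Of 1268 counts under alternatives, 133 moved by more than 1.5 times. The share of all probe sets past the test under each alternative is not given here.

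Hspbap1 passed at day 7 under 20 of 60 alternatives and Hspb2 at day 10 lost its call in 40 of 60 (adjusted p from 0.00770 to 0.810). Hspb3 in FL against LF kept its call in all 59 alternatives that held it. At percentile 13.3 it lay under the 25% cut, so leaving out dim probe sets removed it and could not test it. In LF day 7, in FL against LF and in any strain difference at day 0, the lower count without dim probe sets reflects that removal. The Dnajc28 response difference lost its call in 14 of 60. Dim signals limit Hspb3, Dnajc5g and Psma2-ps2 most.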
